A study of Rattus norvegicus with 36 samples.

Results

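The genes described here encode opioid peptide precursors and opioid receptors of the rat: Penk (ENSRNOG00000008943), Pdyn (ENSRNOG00000026036), Oprm1 (ENSRNOG00000018191) and Oprk1 (ENSRNOG00000007647). They were chosen by name, found by their Ensembl identifiers, and are 4 of the 32623 identifiers in the count files. The study trained 19 Sprague Dawley rats (the labels spell the strain Sparague Dawley) in a gambling task on a touch screen, in which 4 light signals carried different rewards and punishments, and classed each animal by its settled choices. There were 9 risk-averse and 10 risk-seeking animals, and no drug, allele or untrained group is named. Bulk RNA of the prefrontal cortex (PFC; the extraction protocol says medial) and the nucleus accumbens (NAc) was sequenced in 36 libraries, which form 4 groups of 9, and 17 animals gave both regions. Single animals are named by the codes of their titles, such as B2 or BR9. The labels give neither the age nor the sex of the animals.

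Opioid peptides are short neuropeptides cut from larger precursor proteins. Proenkephalin, the product of Penk, yields the enkephalins, and prodynorphin, the product of Pdyn, yields the dynorphins. Oprm1 encodes the mu opioid receptor, which binds enkephalins and the morphine-like drugs, and Oprk1 encodes the kappa opioid receptor, the main target of dynorphins; both act through inhibitory G proteins. In the nucleus accumbens, Penk and Pdyn are known as markers of different classes of medium spiny neurons, the indirect-pathway and direct-pathway cells. Mu receptor signalling there is known for its link to reward, and kappa receptor signalling for aversion and for holding back dopamine release.

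The region around the start of transcription is shown for Pdyn and Oprm1, the members for which such sequence was available. The windows come from RefSeq on the GRCr8 assembly, which is not the build of the counts, and run from 250 bases before to 50 bases after an annotated start, 5′ to 3′ on the strand of the gene. Pdyn has 1 window, chr3:137366454-137366753 on the minus strand, and Oprm1 has windows at chr1:45585733-45586032 and chr1:45565121-45565420 on the plus strand. Penk and Oprk1 are named only. Capitals mark a match to a searched motif.
Pdyn: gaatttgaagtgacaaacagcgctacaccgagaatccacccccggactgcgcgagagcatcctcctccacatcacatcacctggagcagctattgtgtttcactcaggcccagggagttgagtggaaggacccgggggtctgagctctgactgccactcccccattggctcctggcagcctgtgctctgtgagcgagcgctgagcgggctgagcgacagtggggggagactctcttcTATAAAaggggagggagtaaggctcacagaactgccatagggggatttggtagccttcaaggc
Oprm1 at 45585733: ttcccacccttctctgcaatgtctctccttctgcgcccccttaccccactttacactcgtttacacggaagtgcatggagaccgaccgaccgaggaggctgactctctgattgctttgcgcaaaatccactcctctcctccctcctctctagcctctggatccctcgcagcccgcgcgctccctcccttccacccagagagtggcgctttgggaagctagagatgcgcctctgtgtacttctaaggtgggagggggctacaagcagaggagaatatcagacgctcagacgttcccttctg
Oprm1 at 45565121: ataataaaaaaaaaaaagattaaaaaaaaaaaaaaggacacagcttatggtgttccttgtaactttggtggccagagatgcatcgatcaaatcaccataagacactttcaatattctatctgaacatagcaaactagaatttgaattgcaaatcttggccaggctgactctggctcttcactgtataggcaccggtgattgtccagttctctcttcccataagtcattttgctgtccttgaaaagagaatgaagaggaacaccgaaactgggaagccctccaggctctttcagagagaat
The Pdyn window is 58.3% G or C, the Oprm1 window at 45585733 is 57.7% and the Oprm1 window at 45565121 is 39.0%, beside a median of 51.7% over 33469 such windows. Both strands were searched for TATAAA (the TATA box), TGACGTCA and TGACG (the full and partial cyclic-AMP response element) and TGANTCA (the AP-1 site). TGACG lies within TGACGTCA, so a full element counts under both. The only match was TATAAA in the Pdyn window, 13 bases before the annotated start, and 14.2% of all windows hold that motif. The other motifs occur in 1.83%, 21.2% and 7.33% of windows.

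Each library held between 18436025 and 34761269 counts assigned to genes. Levels are given as CPM, the count of a gene scaled to the size of its library with the trimmed mean of M values (TMM). CPM values are not divided by transcript length, so they are compared between libraries and not between genes. In bulk tissue, fewer cells of a type and less RNA per cell cannot be told apart. The dissections were not checked against marker genes, because none of the 32623 identifiers could be matched to a gene symbol with the tables used here. The unassigned share, as used below, is the share of reads that matched no annotated gene feature. Its base is these reads, those assigned to a gene and those overlapping more than 1 gene. The unassigned share averaged higher in risk-averse animals, though the groups overlapped. In PFC it averaged 25.01% ± 1.98 (SD, n = 9) for the risk-averse group and 23.3% ± 0.666 for the risk-seeking group. The NAc values were 27.6% ± 2.61 and 25.7% ± 1.02. The same 4 animals, B2, B3, BR9 and R7, had the highest unassigned share in each region, and all are risk-averse. The lowest share in each region, 22.1% in PFC and 24.5% in NAc, was also that of a risk-averse animal, N6.

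The first comparison asked how the opioid genes differ between the regions. All 4 were lower in PFC than in NAc, and in each of the 17 animals with both regions. Among all genes, 39.4% of the 15470 tested were called higher in NAc, 38.2% higher in PFC and 77.5% in either direction, by edgeR's quasi-likelihood test with a Benjamini-Hochberg adjusted p under 0.05. A call alone therefore says little here, and the sizes of the differences are given with their place among all genes. The fit used all 36 libraries and did not pair the regions of an animal.

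Penk in NAc ran from 809 CPM in B3 to 1222 CPM in N9, with group medians of 1023 CPM in risk-averse and 1093 CPM in risk-seeking animals. In PFC it ran from 74.1 CPM in B2 to 128 CPM in R6, with medians of 81.6 and 106 CPM. The ranges of the regions lie far apart. PFC over NAc gave a log2 fold change of -3.45 ± 0.06 (SE), a 10.9-fold lower level, with an edgeR adjusted p of 2.32e-35. A smaller change, in either direction, was found for 98.2% of the tested genes. Within an animal, the NAc level exceeded the PFC level by between 8.18-fold in B5 and 13.2-fold in R9.

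Pdyn, the dynorphin precursor, had the wider gap of the precursors. Its level in NAc ran from 342 CPM in B2 to 582 CPM in N9, with medians of 464 CPM in risk-averse and 524 CPM in risk-seeking animals. In PFC it ran from 22.8 CPM in B3 to 42.2 CPM in BR2, with medians of 30.2 and 31.9 CPM. PFC differed from NAc by a log2 fold change of -3.93 ± 0.08 (SE), 15.2-fold lower in PFC, with an edgeR adjusted p of 1.11e-33. Of the tested genes, 98.7% had a smaller change. The fold within an animal ran from 10.6 in B2 to 19.1 in R4.

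Oprk1, the kappa receptor, showed the largest fold of the 4. In NAc it ran from 20.6 CPM in B2 to 39.2 CPM in N9, with medians of 33.0 CPM in risk-averse and 33.4 CPM in risk-seeking animals. In PFC no library exceeded 2.34 CPM, found in R1, and the medians were 1.51 and 1.52 CPM. The log2 fold change was -4.39 ± 0.10 (SE), or 21.03-fold lower in PFC, with an edgeR adjusted p of 6.09e-33, and 99.04% of the tested genes had a smaller change. These PFC levels rest on 22 to 65 counts a library. The fold within an animal ran from 14.8 in R1 to 34.3 in R7.

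Oprm1, the mu receptor, had the smallest gap. In NAc it ran from 5.02 CPM in B5 to 10.01 CPM in N6, with medians of 8.85 CPM in risk-averse and 6.75 CPM in risk-seeking animals. In PFC it ran from 1.40 CPM in R6 to 4.999 CPM in R4, with medians of 2.32 and 1.76 CPM, from 35 to 111 counts a library. The highest PFC library thus nearly met the lowest NAc library, while the next PFC library lay at 3.37 CPM. Its log2 fold change between the regions was -1.81 ± 0.12 (SE), 3.52-fold lower in PFC, with an edgeR adjusted p of 1.68e-16. Still, 93.1% of the tested genes had a smaller change. The fold within an animal ran from 1.90 in R4 to 6.12 in BR9.

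**Figure D1:**
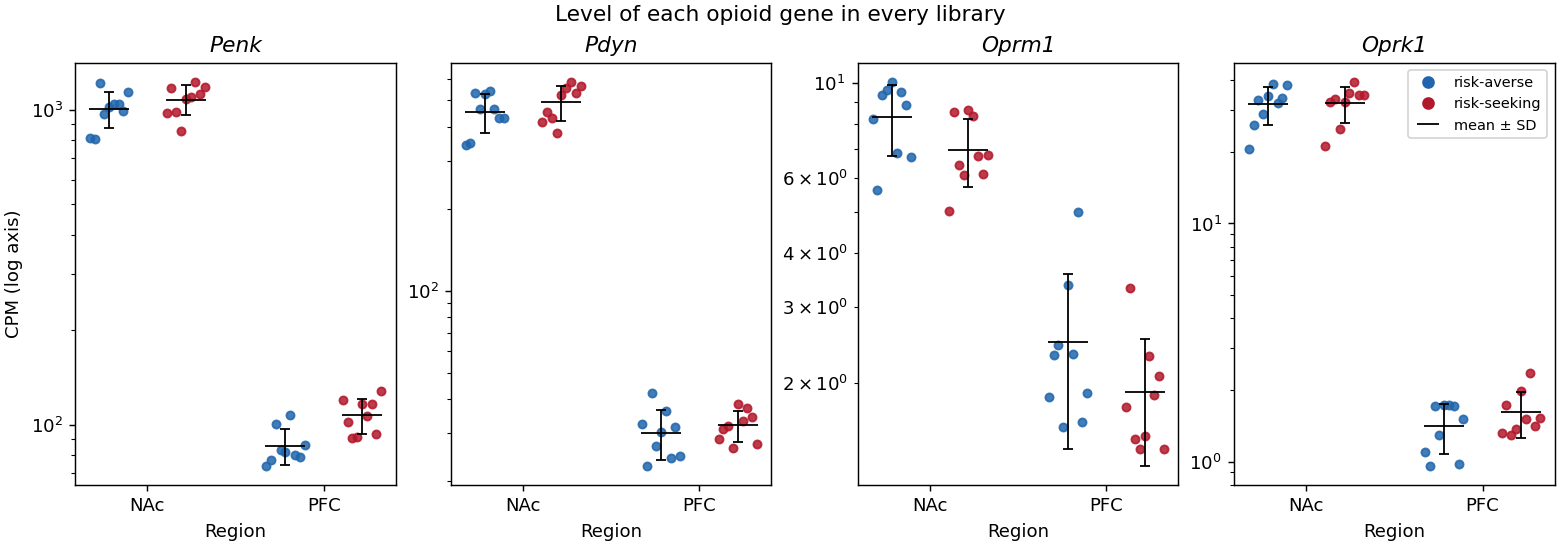
Level of each gene in every library (CPM, log axis) by region, with risk-averse libraries in blue and risk-seeking libraries in red; bars give the mean ± SD of 9 libraries. All genes sit lower in PFC, and the regions come closest for Oprm1, at 4.999 CPM in the highest PFC and 5.02 CPM in the lowest NAc library.

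Set as a share, the mean PFC level was 4.75% of the NAc level for Oprk1, 6.57% for Pdyn, 9.25% for Penk and 28.8% for Oprm1. Genes more restricted to NAc were present: among 9993 genes at 10 CPM or more in NAc, the 10 with the lowest share lay between 0.0448% and 0.834%.

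The balance of the precursors also differed between the regions. It was taken as the log2 ratio of Pdyn to Penk counts in a library, whose level depends on the transcript lengths and which is used only between groups. In PFC it averaged -1.52 ± 0.230 (SD, n = 9) in risk-averse and -1.74 ± 0.252 in risk-seeking animals. In NAc it averaged -1.16 ± 0.145 and -1.14 ± 0.119. The ratio was higher in NAc in 16 of 17 animals, by 0.45 ± 0.23 (mean ± SD, n = 17), so Pdyn had the greater share of the pair there. The exception was B2, in which it was lower in NAc by 0.05.

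The central comparison of the study set risk-seeking against risk-averse animals within each region. In PFC, Penk was higher in risk-seeking animals by 0.32 on the log2 scale and was the only one of the 4 to pass the test. That is 1 of 4 genes, where 23.3% of the 15128 tested genes were called in either direction and 11.8% higher, so the count of members is near the background. Penk ranked 784th of those genes by p and 1606th by the size of its change. In NAc, edgeR called none of 15418 genes, a background of 0%, although 2748 had an unadjusted p under 0.05, DESeq2 called 566 and limma called 0.

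Penk in PFC had a lowest, median and highest level of 74.1, 81.6 and 107 CPM in risk-averse animals. In risk-seeking animals these were 90.7, 106 and 128 CPM. All 9 risk-seeking libraries lay above the risk-averse median and 7 risk-averse libraries lay below every risk-seeking one, but the groups overlapped. The means were 85.4 ± 11.1 and 107 ± 13.7 CPM (SD, n = 9), and the log2 fold change was 0.32 ± 0.08 (SE), with a 95% interval from 0.16 to 0.48 and an edgeR adjusted p of 0.00832. Leaving out any 1 library kept the call, with log2 fold changes from 0.28 to 0.36.

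That call did not survive every change of the model. With the unassigned share as a covariate, the log2 fold change was 0.24 and the edgeR adjusted p 0.111; with the share of ambiguous reads (those overlapping more than 1 gene), 0.19 and 0.761. Without the 4 animals named above it was 0.23, with an edgeR adjusted p of 0.203. Across all genes these fits called 334, 0 and 1 genes in place of 3521. The ambiguous share itself differed with preference. In PFC it averaged 0.655% ± 0.042 (SD, n = 9) for the risk-averse group and 0.719% ± 0.033 for the risk-seeking group. The NAc values were 0.690% ± 0.037 and 0.741% ± 0.024. The unassigned share also averaged higher in risk-averse animals, as given above. A fit with either covariate cannot fully separate the share from preference.

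Pdyn in PFC, in contrast with Penk, had means of 30.1 ± 6.30 CPM in risk-averse and 32.0 ± 4.12 CPM in risk-seeking animals. The groups overlapped, with 3 risk-averse libraries below and 1 above every risk-seeking one. The log2 fold change was 0.08 ± 0.10 (SE), with a 95% interval from -0.13 to 0.29 and an edgeR adjusted p of 0.615. It was 0.03 without B3 and 0.14 without BR2. The ratio of Pdyn to Penk in PFC was 0.22 lower in risk-seeking animals on the log2 scale, with a two-sided exact permutation p of 0.0690 and 0.138 after adjustment over both regions. In NAc it was 0.02 higher, with an exact permutation p of 0.751.

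In NAc the precursors did not pass. Penk averaged 1005 ± 133 CPM in risk-averse and 1077 ± 118 CPM in risk-seeking animals, with a log2 fold change of 0.09 and a 95% interval from -0.07 to 0.25. Pdyn averaged 453 ± 74.0 and 492 ± 73.5 CPM, with a log2 fold change of 0.11 and an interval from -0.08 to 0.31. Their edgeR adjusted p values were 0.563 and 0.571. Both directions turned with the unassigned share as a covariate (-0.03 for Penk and -0.04 for Pdyn) and without the 4 animals of highest share (-0.03 for each).

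Oprm1 was the one gene with lower means in risk-seeking animals in both regions, though neither difference passed. In NAc the means were 8.30 ± 1.56 CPM in risk-averse and 6.97 ± 1.27 CPM in risk-seeking animals, and the risk-averse median was above 9 of 9 risk-seeking libraries. The log2 fold change was -0.26 ± 0.12 (SE), with a 95% interval from -0.50 to -0.01, an unadjusted p of 0.0396 and an edgeR adjusted p of 0.256. In PFC the means were 2.49 ± 1.09 and 1.90 ± 0.620 CPM, and the risk-averse median was above 8 of 9 risk-seeking libraries. A log2 fold change of -0.40 ± 0.22 (SE) was estimated there, with an interval from -0.85 to 0.04 and an edgeR adjusted p of 0.181. Without R4, at 4.999 CPM, it was -0.21. With the ambiguous share as a covariate, the NAc value was -0.03 and the PFC value 0.05, so the direction in PFC turned. Oprm1 kept its direction when the unassigned share was the covariate, at -0.57 in PFC and -0.32 in NAc. Leaving out B2, B3, BR9 and R7 gave -0.67 in PFC and -0.29 in NAc. None of these values passed. The ambiguous share itself differed with preference, and the unassigned share averaged higher in risk-averse animals, as given above.

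Oprk1 did not pass in either region. In NAc the means were 31.6 ± 5.71 CPM in risk-averse and 32.0 ± 5.55 CPM in risk-seeking animals, with a log2 fold change of 0.01 and a 95% interval from -0.23 to 0.25. In PFC they were 1.41 ± 0.332 and 1.61 ± 0.351 CPM, with a log2 fold change of 0.18 and an interval from -0.14 to 0.50. The edgeR adjusted p values were 0.973 and 0.433. The PFC value was 0.0856 without R1, 0.0025 with the unassigned share as a covariate and -0.0640 without B2, B3, BR9 and R7. In NAc the direction turned too, to -0.153 with that covariate and -0.143 without those animals.

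**Figure D2:**
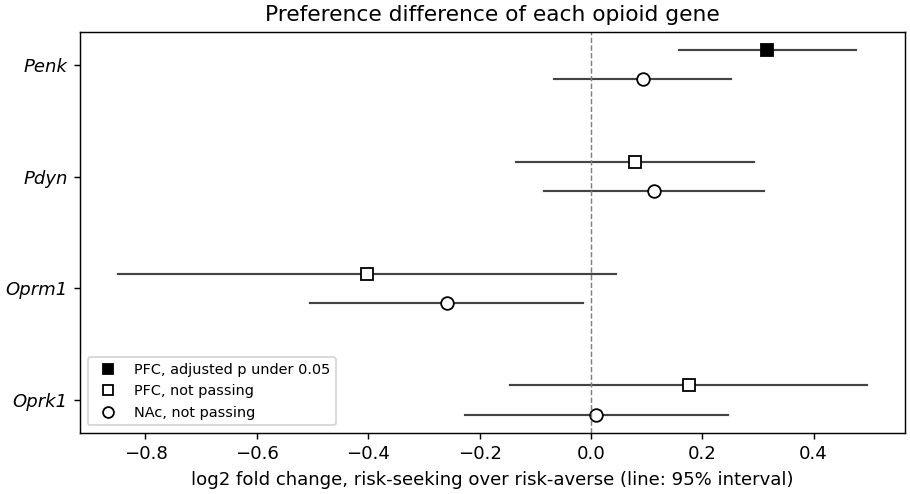
Log2 fold change of risk-seeking over risk-averse animals for each gene in PFC (squares) and NAc (circles), with lines for the 95% interval and a filled symbol where the adjusted p passed. The filled symbol is Penk in PFC at 0.32, and both Oprm1 symbols lie below 0.

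Whether the preference difference itself differed between the regions was tested as an interaction in 1 fit. None of 15936 genes passed in edgeR, while 387 had an unadjusted p under 0.05, and DESeq2 called 0. Penk had an interaction of 0.23 ± 0.11 (SE) on the log2 scale, larger in PFC, with an unadjusted p of 0.0496 and an edgeR adjusted p of 0.981. With the animal as a replicate block it was 0.22, with an unadjusted p of 0.0105 and an edgeR adjusted p of 0.363. The Penk call in PFC alone is thus not shown to differ from NAc. The interactions of Pdyn, Oprm1 and Oprk1 were -0.03, -0.14 and 0.17, with edgeR adjusted p values from 0.981 to 0.991.

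The genes also varied from animal to animal within a region. In NAc the biological coefficient of variation, the spread beyond counting error that edgeR estimates, was 16.6% for Oprk1, beside 10.5% for genes of like abundance. That excess was above that of 94.5% of genes. The values were 11.4% beside 9.92% for Penk, 14.2% beside 9.90% for Pdyn and 17.2% beside 17.8% for Oprm1. In PFC the values were 11.6% beside 9.67% for Penk, 15.2% beside 11.1% for Pdyn, 30.1% beside 23.1% for Oprm1 and 18.5% beside 24.2% for Oprk1. The excess there was above that of 92.4% of genes for Pdyn, 90.6% for Oprm1 and 86.9% for Penk.

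In NAc, animals with more Penk also had more Pdyn and more Oprk1. Across the 18 NAc libraries, log2 CPM of Penk and Pdyn had a Pearson r of 0.839 and a Spearman rho of 0.734. The permutation p, adjusted over 12 relations among the genes, was 0.00012 for r and 0.00624 for rho, and the raw value of 1e-05 for r is the smallest that the permutations can give. The relation was present within risk-averse (r = 0.807) and within risk-seeking animals (r = 0.851), and was 0.698 without B2 and B3, which lie farthest from the median of Penk. Penk and Oprk1 had r of 0.756 and rho of 0.682, and Pdyn and Oprk1 had r of 0.765 and rho of 0.748, both with an adjusted permutation p of 0.00148 for r, and of 0.0104 and 0.00624 for rho. Without B2 and B3 these r were 0.623 and 0.636. Pdyn with Oprk1 missed the threshold on deviations from the means of animals that share title letters (r = 0.465), and Penk with Oprk1 missed it without the 4 animals of highest unassigned share (r = 0.630).

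In NAc, Oprm1 followed the others less closely, with r of 0.223 with Penk, 0.284 with Pdyn and 0.260 with Oprk1. None passed a permutation test. Within risk-averse animals these r were 0.353, 0.475 and 0.0460, and within risk-seeking animals 0.465, 0.436 and 0.592. On deviations from the preference group means they were 0.401, 0.457 and 0.303, and none passed. In PFC 1 of 6 pairs passed, Penk with Oprk1, at r of 0.593 and rho of 0.585 and adjusted permutation p of 0.0282 and 0.0366. Without B5 and R6 the r was 0.767. On deviations from the means of the preference groups r was 0.554 and missed the threshold, and r was 0.220 when B2, B3, BR9 and R7 were left out. By such deviations Penk was the 781st closest gene to Oprk1 in PFC, among 9902 at 10 CPM or more. Of the other PFC pairs, Pdyn with Oprk1 had r of 0.463, Penk with Pdyn 0.429 and Oprm1 with Oprk1 0.285. Penk with Oprm1 had r of -0.272 and Pdyn with Oprm1 -0.113. Without B5 and R6, Penk with Pdyn had r of 0.676.

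**Figure D3:**
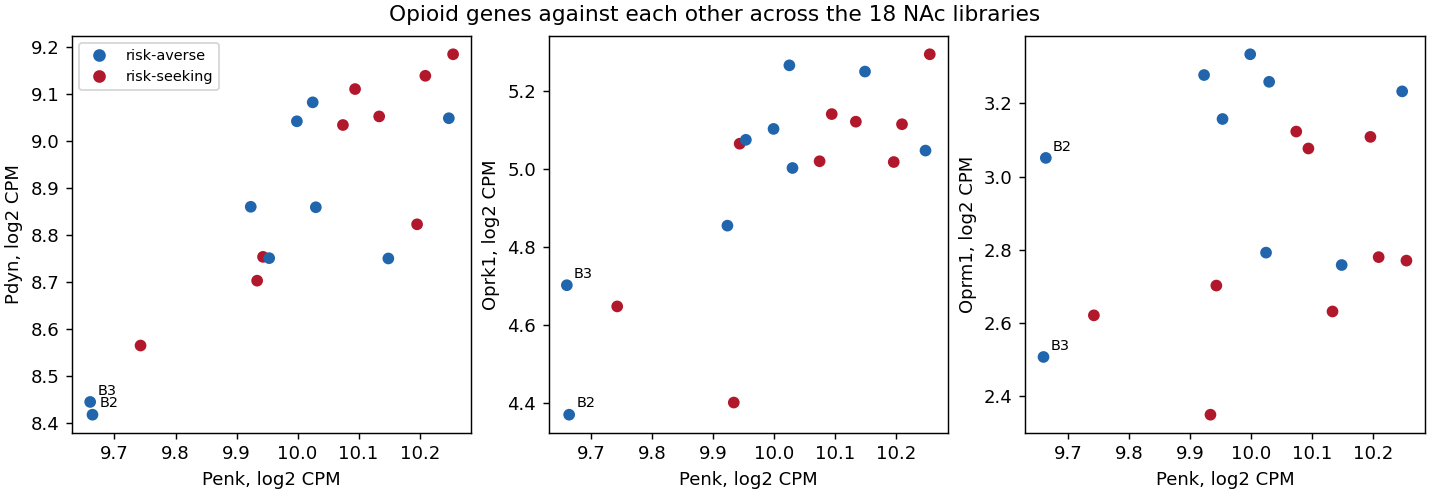
Log2 CPM of Pdyn, Oprk1 and Oprm1 against that of Penk in the 18 NAc libraries, risk-averse in blue and risk-seeking in red. Pdyn and Oprk1 rise with Penk (r = 0.839 and 0.756) with B2 and B3 at the low end. Oprm1 has r of 0.223, and 0.353 within risk-averse and 0.465 within risk-seeking animals.

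The same genes moved with the unassigned share, a relation examined after seeing the data. In NAc, Penk had r of -0.822 and rho of -0.740 with that share, with permutation p of 0.00016 and 0.0068 adjusted over 8 relations. Pdyn had r of -0.777 and rho of -0.647, with adjusted permutation p of 0.00056 and 0.0183. Oprk1 had r of -0.644 and rho of -0.540, with 0.0145 and 0.0445. Oprm1 had r of -0.0303, and -0.222 within risk-averse and -0.484 within risk-seeking animals. Without B2 and B3 the r over both groups was -0.687 for Penk, -0.587 for Pdyn and -0.297 for Oprk1, so the last rests on those libraries. With every library kept, r within risk-averse animals was -0.849 for Penk, -0.843 for Pdyn and -0.889 for Oprk1. Within risk-seeking animals it was -0.862, -0.733 and -0.436. In PFC, Penk had r of -0.582 and rho of -0.569, with adjusted permutation p of 0.0145 and 0.0393. Oprk1 had r of -0.571 and rho of -0.439, with 0.0217 and 0.114. Both relations rest in part on B2 and B3, without which r was -0.373 and -0.307. On deviations from the preference group means r was -0.356 for Penk and -0.506 for Oprk1. Within risk-averse animals the values were -0.468 and -0.688, and within risk-seeking animals -0.213 and -0.00285. Pdyn and Oprm1 in PFC had -0.233 and -0.0524. Across all genes the median r was -0.107 in NAc and -0.0445 in PFC, and 3.44% of genes had a lower r than Penk in NAc and 12.7% in PFC. A lower r than that of Pdyn in NAc was found for 6.25% of genes, than that of Oprk1 in NAc for 15.01% and than that of Oprk1 in PFC for 13.6%. The part of the unassigned share in the relations among the genes was not tested.

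**Figure D4:**
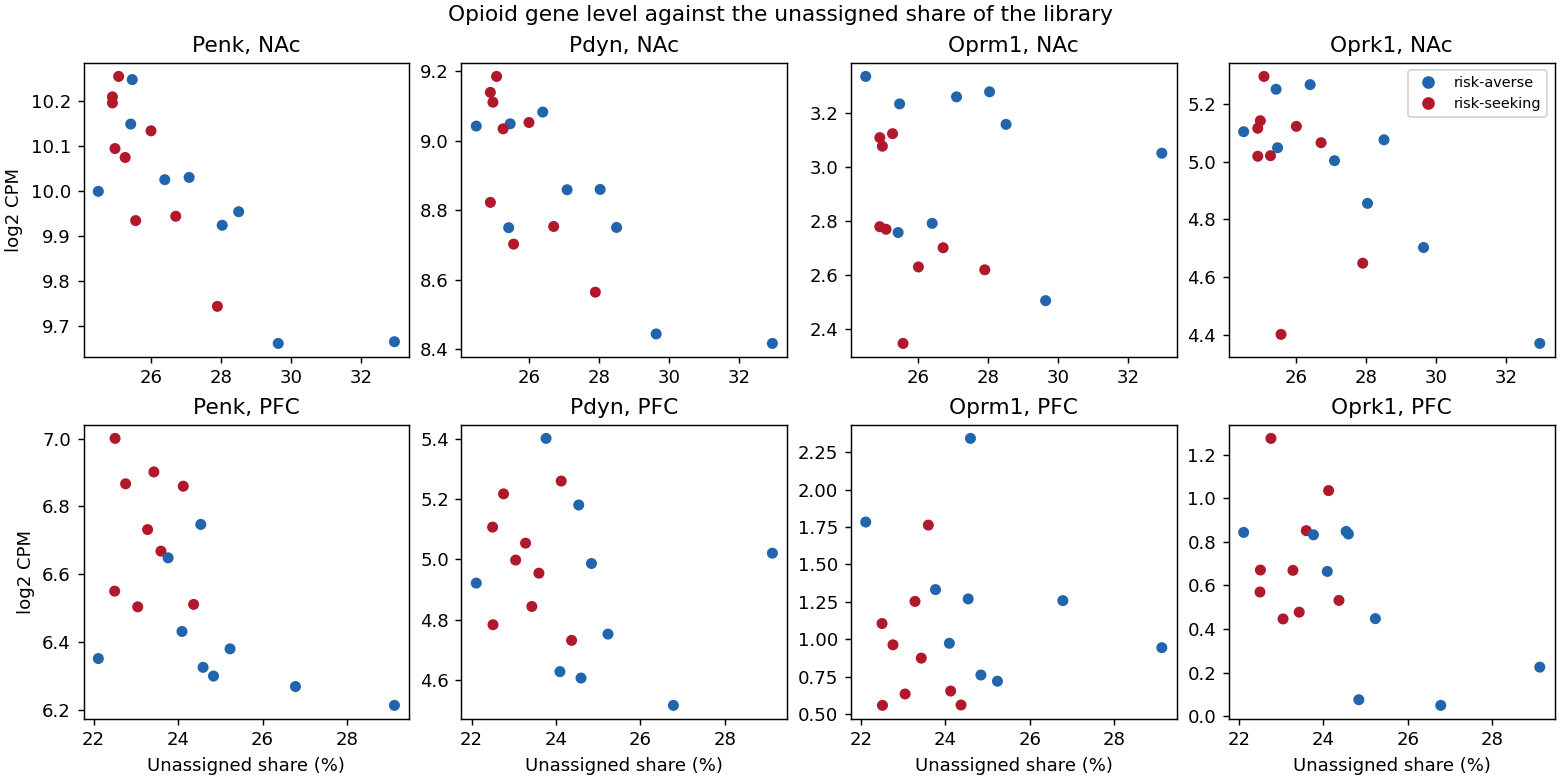
Log2 CPM of each gene against the unassigned share of the library (%), NAc above and PFC below, risk-averse in blue and risk-seeking in red. Penk, Pdyn and Oprk1 in NAc fall as the share increases (r = -0.822, -0.777 and -0.644). Oprm1 in NAc has r of -0.0303, and -0.222 within risk-averse and -0.484 within risk-seeking animals.

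Between the regions of an animal, Pdyn was the one gene to pass. Across 17 animals, its PFC and NAc levels had r of 0.622 and rho of 0.630, with permutation p of 0.0336 and 0.0318 adjusted over 4 relations, and r of 0.488 without B3 and BR2. Penk had 0.520 and Oprk1 0.506, each with an adjusted permutation p of 0.0513, and Oprm1 had 0.415 with 0.0964. Over all 13399 genes the median r was 0.513, so none of the 4 stood far from the genes in general. The Oprm1 value was 0.150 without N6 and R4, and that of Penk 0.602 without B5 and R1. These values leave out different animals for each gene and so do not rank the genes. Without the 4 animals of highest unassigned share, r was 0.703 for Pdyn, 0.682 for Oprm1, 0.413 for Oprk1 and 0.136 for Penk.

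**Figure D5:**
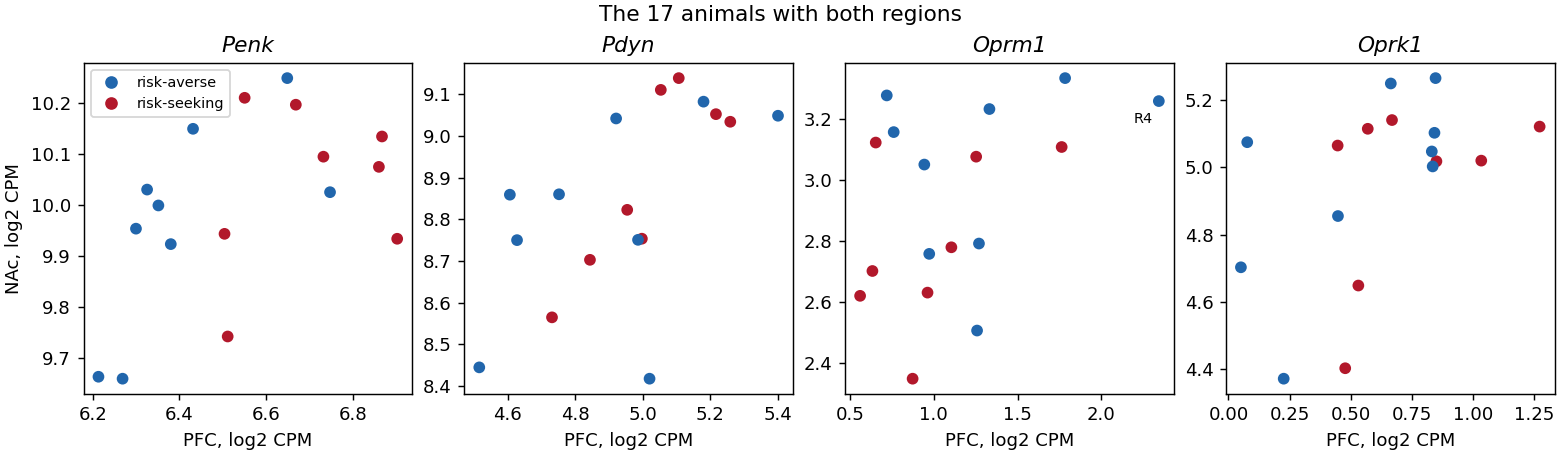
Log2 CPM in NAc against log2 CPM in PFC for the 17 animals with both regions, risk-averse in blue and risk-seeking in red. Pdyn has the highest r of the 4 (0.622), and the Oprm1 relation (0.415) was 0.150 without N6 and R4, the latter at 4.999 CPM in PFC.

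The gene closest to each member was sought over the 18 libraries of a region, among genes at 10 CPM or more, by the r of log2 CPM after the mean of each preference group was removed. On that scale Penk and Pdyn had r of 0.825 in NAc. In NAc the closest to Penk was ENSRNOG00000026828 (r = 0.940), to Pdyn ENSRNOG00000014296 (r = 0.921), to Oprm1 ENSRNOG00000029614 (r = 0.865) and to Oprk1 ENSRNOG00000030771 (r = 0.964). Among 9993 such genes, Pdyn was the 340th closest to Penk, and Penk the 99th closest to Pdyn. Other genes thus tracked these precursors more closely than the precursors tracked each other. In PFC, the closest to Penk was ENSRNOG00000004899 (r = 0.858), which averaged 20.4 CPM there and 2.53 CPM in NAc.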

How the data were processed

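Counts per gene came from the authors' deposited files, 1 per library. Per the submitters' processing notes, reads were handled with Trimmomatic, STAR 2.5.3a, HTSeq 0.9.0 and edgeR on Rnor_6.0 (rn6). Annotation release and use of strand: not given in the sources used here. Whether reads of a gene and of an antisense partner were counted together is therefore not known. Per the labels' protocols, libraries were made from total RNA and read as 101-base pairs.

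The 5 HTSeq summary rows were kept out of library sizes; they gave the unassigned and ambiguous shares. Library sizes were 18436025 to 34761269 counts. The tests were edgeR 4.0.16 quasi-likelihood fits (R 4.3.3, TMM, filterByExpr) over all genes, with Benjamini-Hochberg adjustment and a threshold of 0.05. Preference fits used 1 region each, and the region and interaction fits used all 36 libraries. SE was taken as the fold change over the root of F. Log2 CPM used a prior count of 2, and the Pdyn to Penk ratio a pseudocount of 0.5. DESeq2 1.42.0, limma 3.58.1, other scalings and filters, covariates and libraries left out were alternatives. Permutation tests used SciPy 1.17.1, with 1e+05 resamples for correlations and all 48620 regroupings for the ratio. The script was tested on simulated data.

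Within a group, replicates are separate animals. The main region and interaction fits did not pair the regions of an animal. Titles tie the regions of 17 animals; deviations of the same animal had r of 0.143 to 0.600 over 13399 genes, and 16 of 17 correlated best with their own. Named genes were the 4 members and, for each, the closest gene by r of deviations from preference means; only the closest of the 3 that the rule allows is given, since identifiers carry no symbols. Other opioid pathway lists and cell type markers were not analysed here for that reason. RefSeq (GRCr8) held all 4 members by symbol and promoter windows for 2. The members and lists were chosen with earlier results of these data known.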

Additional observations from a re-analysis of the deposited data

Results flagged for a closer look

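The level of Oprm1 in the PFC of the risk-seeking animal B9 was 3.32 CPM, beside 1.40 to 2.31 CPM in the other 8 risk-seeking animals. Its gap to the nearest of them was 0.526 of the range of the group, over Dixon's critical value for 9 samples. Of 20 groups examined 1 was set apart in this way, and chance sets apart about 1.0.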

How the results depend on the processing

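Over the results and alternatives tried, 486 values stayed the same, 20 reversed, 12 became weaker and 6 stronger. For tests and correlations, the same means an unchanged direction and side of the threshold. The tally also holds the counts of genes called, judged by how near they came to the count of the main fit. In every setting run, the region differences of the 4 genes kept their call; with the animal as a replicate block they were -3.46 for Penk, -3.90 for Pdyn, -1.82 for Oprm1 and -4.38 for Oprk1. The block was fitted for the region difference and the interaction only; it called 12691 genes between regions in place of 11996, and 0 interactions as before.

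The call of Penk in PFC was lost with the ambiguous share (0.187), the unassigned share (0.241) or without the 4 animals of highest unassigned share (0.229). Under those settings edgeR called 0, 334 and 1 genes in PFC in place of 3521, and between 2264 (without B3) and 4227 with any 1 library left out. In NAc DESeq2 called 566 genes, and with 1 library left out edgeR called 0 to 944 (without R9). Values that reversed all failed the test in both forms. With the ambiguous share, Oprm1 in PFC was 0.0530 and Oprk1 in NAc -0.0935. With the unassigned share, Penk, Pdyn and Oprk1 in NAc were -0.0325, -0.0399 and -0.153. Without the 4 animals they were -0.0296, -0.0261 and -0.143, Oprk1 in PFC was -0.0640 and the NAc precursor ratio -0.00169. Leaving out 1 library moved Oprk1 in NAc from -0.0536 to 0.0692 and that ratio from -0.0106 to 0.0496. The Pdyn interaction was 0.0400 with the animal as a replicate block and 0.00388 in limma with a random effect of animal.

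Among correlations, Pdyn with Oprk1 in NAc fell to 0.465 on deviations from the means of animals sharing title letters, and Penk with Oprk1 in NAc to 0.630 without the 4 animals. Penk with Oprk1 in PFC was 0.554 on deviations from preference means, 0.565 from letter means and 0.220 without the 4 animals, no longer passing. Between regions Oprk1 passed on preference deviations (0.546), Oprm1 on letter deviations (0.503) and without the 4 animals (0.682), and Penk on letter deviations (0.597). The cause of these shifts was not tested. Depth limits the receptors in PFC, where Oprk1 rests on 22 to 65 counts and counting alone gives a spread of 16.3%.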
